A study of Homo sapiens with 22 samples.

Results

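The collagen genes of renal proximal tubule epithelial cells (RPTEC) were examined across SETD2 loss, TGF-β treatment, SETD2 re-expression and the ectopic expression of 3 transcription factors. All protein-coding genes with a symbol of the form COL, a number, A and a number were taken, which gave 44 of the 36859 genes measured. They were grouped as 11 fibrillar chains, 6 basement membrane chains, 10 FACIT chains (fibril-associated collagens with interrupted triple helices), 5 beaded filament chains, 3 network-forming chains, 1 anchoring fibril chain, 4 transmembrane chains, 2 multiplexins and 2 of other types. Of the 44 genes, 33 passed the filter on low values, which asked for 10 or more normalized counts in 2 or more libraries, and were tested. The 11 that did not pass were COL2A1, COL5A3, COL6A6, COL9A1, COL9A3, COL10A1, COL15A1, COL19A1, COL20A1, COL23A1 and COL24A1.

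Collagens are secreted or membrane proteins in which a trio of α chains wind into a triple helix, and many types combine chains from different genes. Fibrillar collagens such as types I, III and V give interstitial tissue its tensile strength, whereas type IV chains form the sheet-like network of the basement membrane on which tubular epithelium rests. TGF-β is a well-known inducer of fibrillar collagen in kidney fibrosis, and epithelial cells normally make mainly basement membrane collagen.

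RPTEC here are a human cell line from renal proximal tubule immortalized with hTERT, and SETD2 is the enzyme that trimethylates lysine 36 of histone H3. RNA-seq was available for 22 libraries in 11 groups of 2 replicates. Nothing in the labels states that the replicates were separate cultures, so p-values measure the spread between these libraries, which may be technical. WT cells, WT cells kept for 72 h in 10 ng/mL TGF-β, a pair of clones without SETD2 (KO1, KO2) and a line labelled KO2_Rescue were grown in 2% serum. Re-expression of SETD2 gave the clones Rescue1 and Rescue2. These clones, and WT cells carrying an empty eGFP vector (here eGFP), OCT2, PRRX1 or SOX2, were grown in 10% serum. Each KO line is a single clone made with 1 sgRNA against exon 3 of SETD2, and the clones carry different SETD2 alleles, a pair of deletions in KO1 and a deletion and an insertion in KO2. Each rescue line is likewise a single colony, which carries lentiviral 3×FLAG-tagged SETD2 and was selected with blasticidin, while the transduced WT lines are puromycin-selected pools. Both rescue clones were set against KO2 because the growth conditions of the study name them as derivatives of that clone, which the labels do not state. Clone, vector and, in comparisons across media, serum can therefore not be told apart from the named condition.

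Values below are normalized counts, meaning estimated read counts scaled between libraries, recovered from the deposited log2 values. The sum over all genes was 11674491 to 16758645 normalized counts per library. A gene was called when its adjusted p was below 0.05 and its log2 change exceeded 1 in size in limma's moderated test over all 14585 genes that passed the filter, with Benjamini-Hochberg adjustment. With 2 libraries against 2, an exact permutation test of 1 gene cannot give a p below 0.333, so no single-gene permutation test was used. Changes are on the scale of log2(normalized count + 1), which understates the change of low genes, and a change from or to a group with every library at or under 3 reads is given as a bound on the fold. A fitted value named for such a gene depends on the 1 added to each count and is no bound.

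The targeted gene was checked first. SETD2 had 1852 and 2061 normalized counts in the WT libraries, 1046 and 1130 in KO1 and 1050 and 1052 in KO2. It had 10240 and 10369 in Rescue1 and 10445 and 9764 in Rescue2, above every other library. In the libraries labelled KO2 rescue SETD2 was at 834 and 820, below both KO2 libraries, so this level goes against the label and the group is called labelled KO2 rescue throughout. PRRX1 was at 395 and 404 in its own line and at most 37.5 elsewhere, whereas POU2F2, the gene of OCT2, was at 1251 and 1121 in its line and higher still in KO1 and KO2. The SOX2 transcript was not among the genes checked, so the SOX2 line is named by its label alone.

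The WT libraries stand apart from each other. Among 2347 well-expressed genes, 65 differed by more than 1 on the log2 scale between the WT replicates, against 6 to 27 in the other groups. Those 65 include 4 of the 10 collagen genes expressed at that level (a mean of at least 1000 normalized counts), namely COL1A1 at 11919 and 532, COL5A1 at 35.8 and 5.42, COL7A1 at 24052 and 11935 and COL8A1 at 2268 and 4722. COL4A1 and COL16A1, with lower means, were at 5934 and 125 and 34.3 and 2.12. Called results against WT are therefore given without each WT library wherever that ended the call or moved the value by more than 1.5-fold, and members that were called only without 1 WT library are named. These were 3 with TGF-β, 4 in KO1, 4 in KO2 and 5 in eGFP.

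The labelled cell type was checked against its markers. Broad kidney epithelial markers were present, with summed counts of 17876 to 45519 per library over 10 genes, led by KRT8, and PAX8 was at no less than 1535 in any library. Of 10 proximal tubule markers, GGT1 was the most abundant at 225 to 1091, but HNF4A was at 0 in every library and LRP2, SLC34A1 and SLC5A2 never exceeded 8.5. The list summed to 726 to 2266 per library. Leukocyte genes PTPRC, CD3E and TYROBP were at or near 0, with PTPRC at 20.1 at most, but CD68 reached 364 and CD14 13.2. The endothelial genes PECAM1 and EMCN stayed at 25.1 or below, but KDR reached 145. The endothelial list of 6 genes summed to 103 and 153 in Rescue1, against 3.31 and 19.9 in eGFP. KDR made up only 4.19 and 42.0 of the Rescue1 sums, so other listed members were present there, with CDH5 at 68.7 and 83.8. The smooth muscle list of 6 genes summed to 12.6 to 219, and the 3 chondrocyte genes used here to 21.2 at most. The osteoblast list was RUNX2 almost alone, at 2003 to 3562, with SP7 at 1.2 at most.

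Collagen genes took 0.663 to 1.13% of the normalized counts of the WT libraries and 2.32 and 2.34% with TGF-β. The share was 0.585 and 0.547% in KO1, 0.874 and 0.782% in KO2 and 1.05 to 1.17% in the labelled KO2 rescue and rescue libraries. It lay at 0.742 to 0.899% in the transduced WT lines. The TGF-β libraries were thus above all others and KO1 was lowest, but without COL4A2 the share was 0.415 and 0.204% in WT, 0.385 and 0.361% in KO1 and 0.523 and 0.468% in KO2, so that KO1 then lay between the WT libraries and KO2 above both. With COL4A2 included, WT replicate 1 overlapped the rescue libraries. These shares have no test. In bulk libraries fewer cells that make a transcript and less transcript per cell cannot be told apart.

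**Figure D1:**
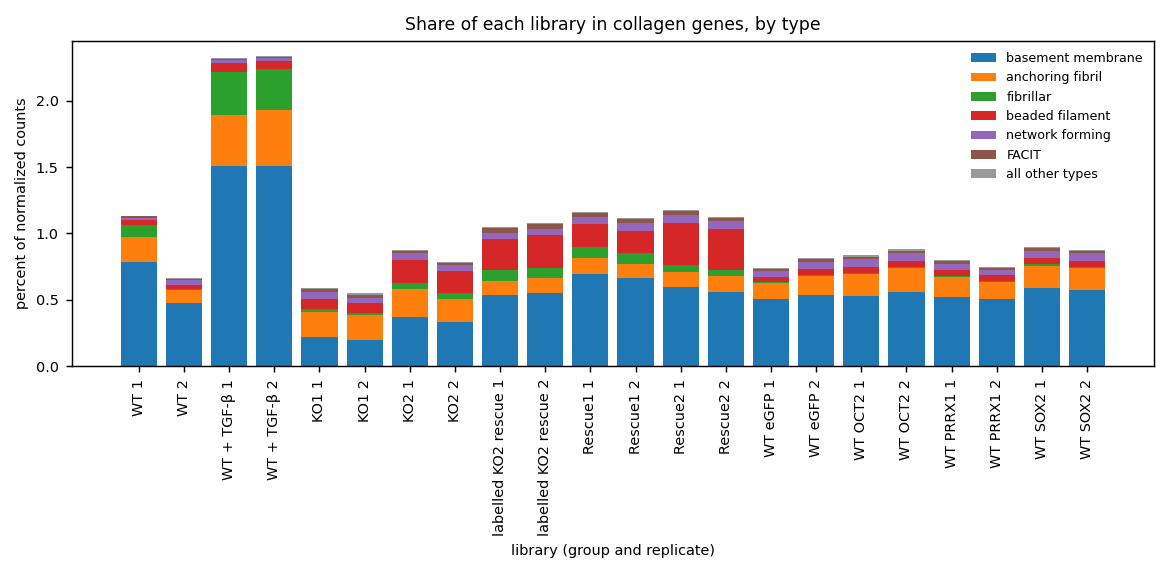
Share of each library's normalized counts (percent, vertical axis) held by the collagen genes, stacked by collagen type, for the 22 libraries. TGF-β libraries reach 2.32 and 2.34%, and the beaded filament (type VI) segment is thickest in KO2, the labelled KO2 rescue and the rescue clones.

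The make-up of this pool differed as well. Basement membrane chains made up 69.1 and 71.9% of collagen counts in WT, 36.8 and 36.5% in KO1 and 42.4 and 42.5% in KO2. Beaded filament chains, all of type VI, went from 3.16 and 4.33% in WT to 12.9 to 21.0% in the KO clones, with KO1 lower than KO2, and 27.3 and 27.8% in Rescue2. Fibrillar chains were highest with TGF-β, at 13.9 and 13.4%, and COL1A1 supplied nearly all of that. The single most abundant member was COL4A2 in each of the 22 libraries, with 34.0 to 69.3% of all collagen counts.

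Per kilobase of the longest transcript, the order of mean levels over the 22 libraries was COL4A2 (12164), COL6A2 (2591), COL7A1 (2529), COL8A1 (1065), COL1A1 (968), COL6A1 (870), COL5A1 (283), COL4A5 (242), COL6A3 (232) and COL12A1 (189). These are means over unlike conditions, and COL1A1, COL5A1 and COL6A3 reached the list through a few groups only, as the plot of all tested members by library shows. COL6A2 and COL7A1 differed little in this mean. The other members lay below, and COL10A1 and COL5A3 were at 0 in every library.

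**Figure D2:**
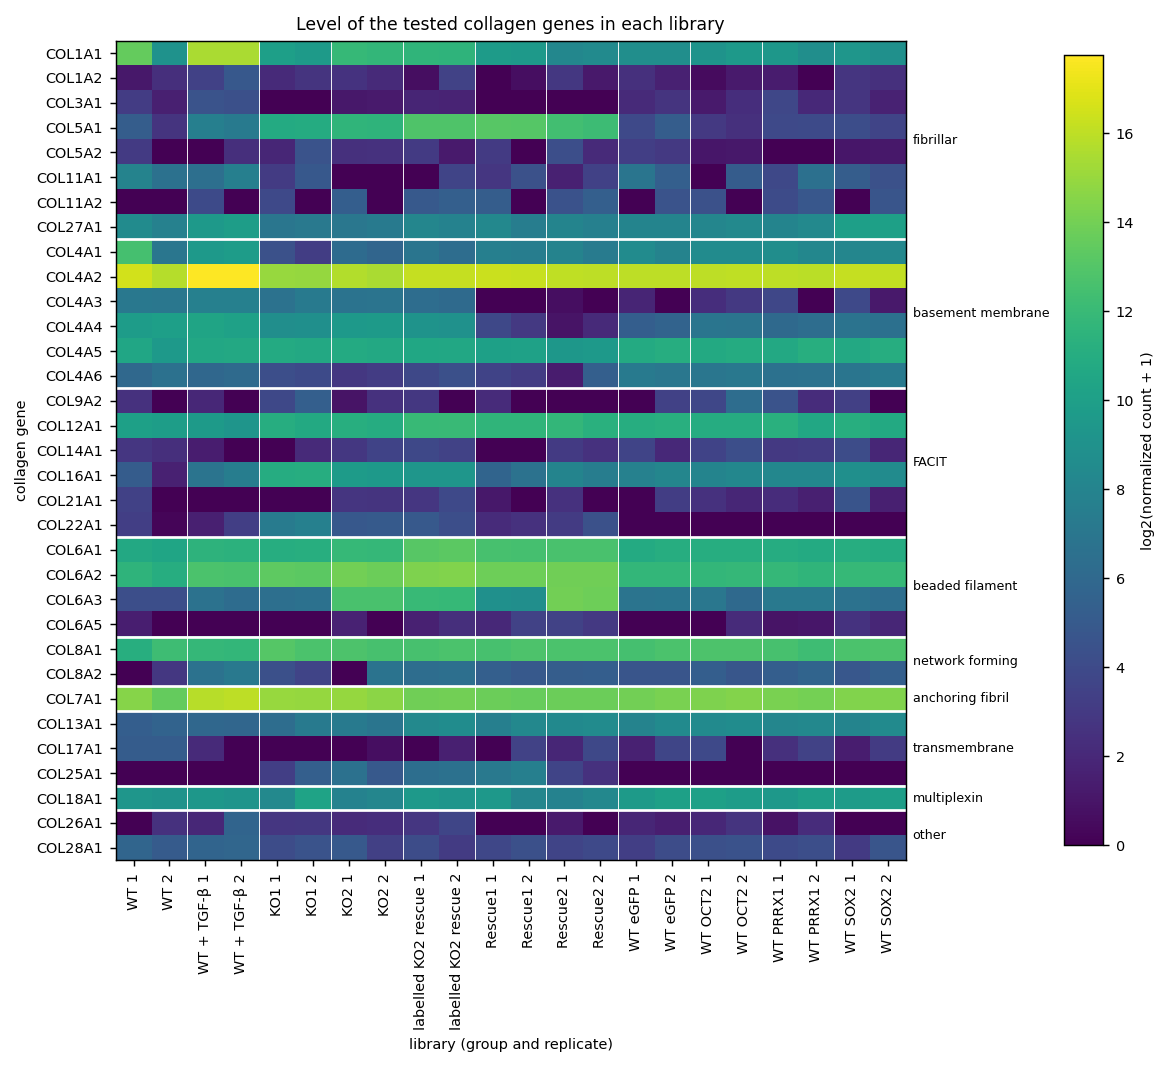
Level of the 33 tested collagen genes (vertical axis, grouped by type) in the 22 libraries (horizontal axis), coloured by log2(normalized count + 1). COL4A2 is bright throughout, COL1A1 is brightest with TGF-β, COL5A1, COL6A2 and COL16A1 are brighter in KO1 and KO2 than in WT, and COL4A3 and COL4A4 are dark in the 10% serum groups.

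Partner chains of the same collagen type were not at matched levels. Type IV collagen of ordinary basement membrane is built from the α1 and α2 chains, and their genes COL4A1 and COL4A2 lie head to head on chromosome 13, with 126 bases between their starts in the RefSeq annotation. COL4A2 was nonetheless far above COL4A1, with a median log2 ratio per kilobase of 8.18 over 22 libraries, a highest value of 11.7 and none below 0. On the linear scale, COL4A2 was at 5185 and 4834 normalized counts per kilobase in the KO1 libraries, where COL4A1 was at 3.12 and 1.30. COL4A1 was also the less stable between replicates, at 907 and 19.1 per kilobase in WT. The annotated spans of both genes overlap in GENCODE, on opposite strands, and whether transcript assignment shaped this ratio was not tested.

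The same held for type I collagen, which is normally assembled from COL1A1 and COL1A2 chains. COL1A2 was at 1.97 and 5.55 normalized counts per kilobase with TGF-β, where COL1A1 was at 7879 and 7610. Its median log2 ratio to COL1A1 was -7.95 over the 22 libraries, with 1 added to each count. COL3A1, the type III chain, never exceeded 22.8 normalized counts, and COL5A2, the usual partner of COL5A1 in type V collagen, never exceeded 22.4. The α1 and α2 chains of type VI were closer, with a median log2 ratio of COL6A2 to COL6A1 of 1.43 per kilobase of the longest transcript, but 0.10 when the median transcript length was used.

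**Figure D3:**
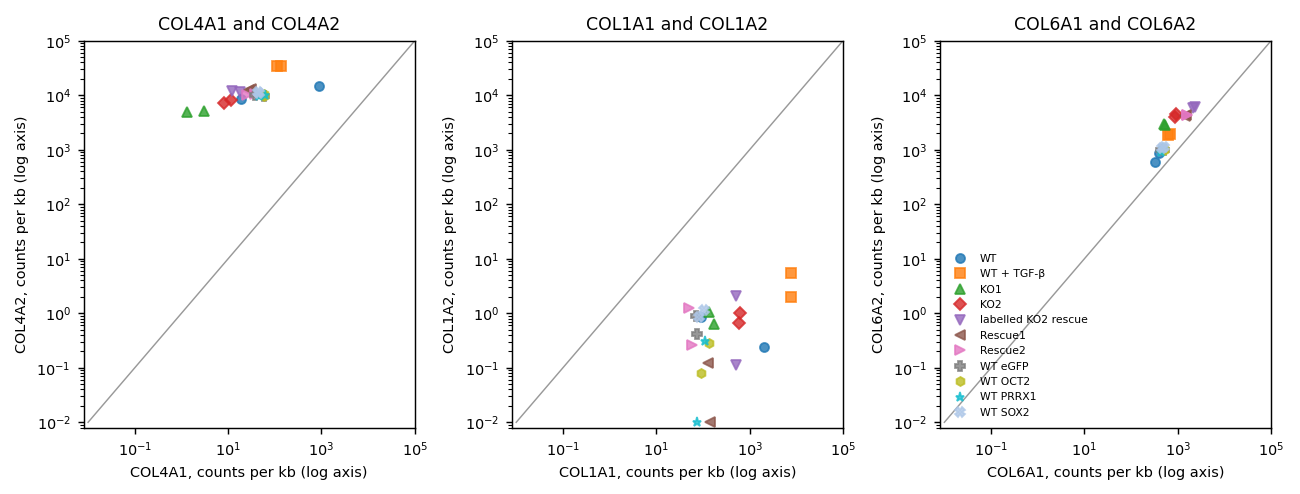
Normalized counts per kilobase of partner chains in each library, both axes logarithmic, with the line of equal level and values of 0 drawn at 0.01. COL4A2 lies above the line in every library, COL1A2 below it in every library, and COL6A2 above it, the KO, labelled KO2 rescue and rescue libraries being higher than WT on both type VI axes.

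The short stretch between COL4A1 and COL4A2, and the upstream stretches of COL4A3 and COL4A4, are shown because the first pair was very uneven while both genes of the second were low in the 10% serum groups. All of those groups were also transduced and drug-selected. The second pair was uneven too (COL4A4 to COL4A3, median log2 ratio 2.52), as was the head-to-head pair COL4A5 and COL4A6 (COL4A6 to COL4A5, -4.57), which is not shown. COL4A3 and COL4A4 encode the α3 and α4 chains found in mature kidney basement membrane, and 418 bases lie between their starts on chromosome 2, again head to head. All sequences are from RefSeq on GRCh38.p14, read 5′ to 3′ on the strand of the named gene, from regions that overlap no annotated exon. Capitals mark a GC box (GGGCGG or its reverse complement) or a CCAAT box (CCAAT), where present. The COL4A2 stretch is chr13:110307158-110307257 on the plus strand, the COL4A3 stretch chr2:227164474-227164623 on the plus strand and the COL4A4 stretch chr2:227164206-227164355 on the minus strand.
COL4A2: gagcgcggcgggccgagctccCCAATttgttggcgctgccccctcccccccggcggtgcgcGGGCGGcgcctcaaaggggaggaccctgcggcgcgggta
COL4A3: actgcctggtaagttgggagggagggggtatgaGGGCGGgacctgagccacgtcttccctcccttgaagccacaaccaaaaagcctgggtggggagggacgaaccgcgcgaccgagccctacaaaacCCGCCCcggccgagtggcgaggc
COL4A4: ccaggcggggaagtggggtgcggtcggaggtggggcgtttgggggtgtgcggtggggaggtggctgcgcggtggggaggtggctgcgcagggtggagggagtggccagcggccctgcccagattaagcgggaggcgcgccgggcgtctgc
The COL4A2 stretch starts at the base next to the first base of COL4A1, and holds a CCAAT box 105 bases and a GC box 65 bases upstream of the COL4A2 start. The COL4A3 stretch holds GC boxes 117 and 23 bases upstream, and none of the letters searched was in the COL4A4 stretch. Over the RefSeq promoter windows, searched on both strands in the 250 bases before each start, the GC box was in 24 of 44 windows of 32 collagen genes (54.5%) and in 42.6% of all 35116 windows. The CCAAT box was in 27.3% and 32%, the TATA box (TATAAA) in 18.2% and 10.7%, the AP-1 site (TGANTCA) in 2.27% and 6.57%, and the E-box bound by ZEB and SNAI factors (CAGGTG) in 11.4% and 17.5%. The SMAD palindrome (GTCTAGAC) was in 0 of the 44 windows and in 0.182% of all windows. No call was made from these matches.

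The TGF-β comparison addresses how collagen genes respond to a ligand that drives epithelial cells to a mesenchymal state. Of the 33 tested members 9 were called higher and 0 lower, where 3.58% of all tested genes were called higher and 4.26% lower. The 9 were COL1A1, COL5A1, COL27A1, COL4A2, COL16A1, COL6A2, COL6A3, COL8A2 and COL7A1, so that fibrillar, basement membrane, FACIT, beaded filament, network and anchoring fibril types were all represented. The median log2 change was 0.65 over the 33 members and 0.00 over all tested genes. Of all called genes 45.7% were higher, but 27.7% when each library was scaled to the same total, which moved the median of all genes by -0.20 and left 9 members higher and 1 lower. Marker lists moved too. The smooth muscle list went from 75.5 and 12.6 in WT to 219 and 155, and the fibroblast list from 534 and 313 to 1190 and 1350. Kidney epithelial markers went from 39857 and 43483 to 32749 and 34522, and proximal tubule markers from 1023 and 1272 to 1523 and 1424. The part of these lists in the TGF-β results was not tested.

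Among fibrillar chains, COL1A1, the main chain of type I collagen, was at 11919 and 532 normalized counts in WT and at 46598 and 45007 with TGF-β (log2 change 4.18, SE 0.86, adjusted p = 0.00324). Both treated libraries were above both WT libraries, and without WT replicate 1 the log2 change was 6.42, and 1.94 without WT replicate 2. COL5A1, a chain of type V collagen that helps start fibrils, was at 35.8 and 5.42 in WT and 200 and 162 with TGF-β (log2 change 3.55, SE 0.56, adjusted p = 0.000432). It remained called without either WT library, at 4.81 and 2.29. COL27A1, a fibrillar chain best known from cartilage, was at 371 and 224 in WT, against 752 and 944 in the treated libraries (log2 change 1.54, SE 0.27, adjusted p = 0.000843), with no overlap. COL11A1, a minor fibril chain, was at 246 and 97.3 in WT, against 90.1 and 205 in the treated libraries, and these groups overlapped.

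COL4A2 was at 93505 and 55847 in WT and 218210 and 219610 with TGF-β (log2 change 1.60, SE 0.15, adjusted p = 4.62e-06). The treated libraries differed little and lay above both WT libraries. Its partner COL4A1 was at 735 and 898 with TGF-β, between the WT values, and was not called. Its direction turned with the WT library, at 2.69 without WT replicate 1 and -2.87 without WT replicate 2, both past the thresholds. Without WT replicate 1, COL4A5 (1.10) and COL3A1 (adjusted p = 0.0311) were also called higher. COL7A1, which forms the anchoring fibrils under epithelia, was at 24052 and 11935 in WT, against 57251 and 62986 in the treated libraries (log2 change 1.83, SE 0.21, adjusted p = 2.69e-05), again without overlap.

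In type VI collagen, a microfibril of the pericellular matrix, COL6A2 was at 2972 and 2089 in WT and 6598 and 6293 with TGF-β (log2 change 1.37, SE 0.12, adjusted p = 1.62e-06). COL6A3 was at 18.4 and 18.0 in WT, against 103 and 76.5 in the treated libraries (log2 change 2.22, SE 0.23, adjusted p = 1.16e-05). COL6A1 was at 1660 and 1385 in WT, against 2816 and 2646 in the treated libraries (log2 change 0.85, SE 0.09, adjusted p = 1.93e-05), which passes the p threshold but not the size threshold. All 3 were higher in both treated libraries than in either WT library. COL16A1, a FACIT chain, was at 34.3 and 2.12 in WT, against 111 and 183 in the treated libraries (log2 change 3.77, SE 0.72, adjusted p = 0.00179), with 5.53 without WT replicate 1 and 2.02 without WT replicate 2. COL8A2, a network chain, was at 0 and 6.42 in WT, against 100 and 140 in the treated libraries (log2 change 5.46, SE 1.44, adjusted p = 0.0159), but leaving out WT replicate 2 gave 6.90, and leaving out WT replicate 1 gave 4.01 and no call (adjusted p = 0.137). COL8A2 was also not called without TGF-β replicate 1 (adjusted p = 0.0644) or TGF-β replicate 2 (adjusted p = 0.0857). Fitted on the WT and TGF-β libraries alone, limma called 0 of the 33 members and 0 of all 14585 genes, with 11 members and 23.1% of all genes at an unadjusted p below 0.05.

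SETD2 loss was compared with WT in each KO clone. In KO1 15 of 33 members were called, 8 higher and 7 lower, where 12% of all tested genes were higher and 13.1% lower. In KO2 14 were called, 10 higher and 4 lower, against 9.02% and 7.29% of all tested genes. Fitted on the WT and KO1 libraries alone, 5 members and 13.1% of all genes were called in KO1, and 10 members and 11.5% in the like fit for KO2. On the deposited log2 values, whose floor compresses changes, 5 members (1.22% of all genes) were called in KO1 and 3 (0.644%) in KO2. Both clones are set against the same WT libraries, and 11 members were called in both, 8 of them higher (COL5A1, COL6A2, COL6A3, COL8A1, COL13A1, COL16A1, COL22A1 and COL25A1) and 3 lower (COL4A1, COL4A6 and COL17A1). Of all tested genes 12.7% were called in both clones, 6.95% higher in both and 5.73% lower in both, and these shares rest on the same shared WT libraries. The median log2 change over the members was 0.59 in KO1 and 0.73 in KO2, where all tested genes had 0.00 in each. Scaling each library to the same total moved the median of all genes to -0.39 in KO1 and -0.20 in KO2, changed the share of higher genes among all calls from 47.7 to 27.9% and from 55.3 to 41.5%, and left 6 members higher and 7 lower in KO1, and 8 higher and 6 lower in KO2.

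**Figure D4:**
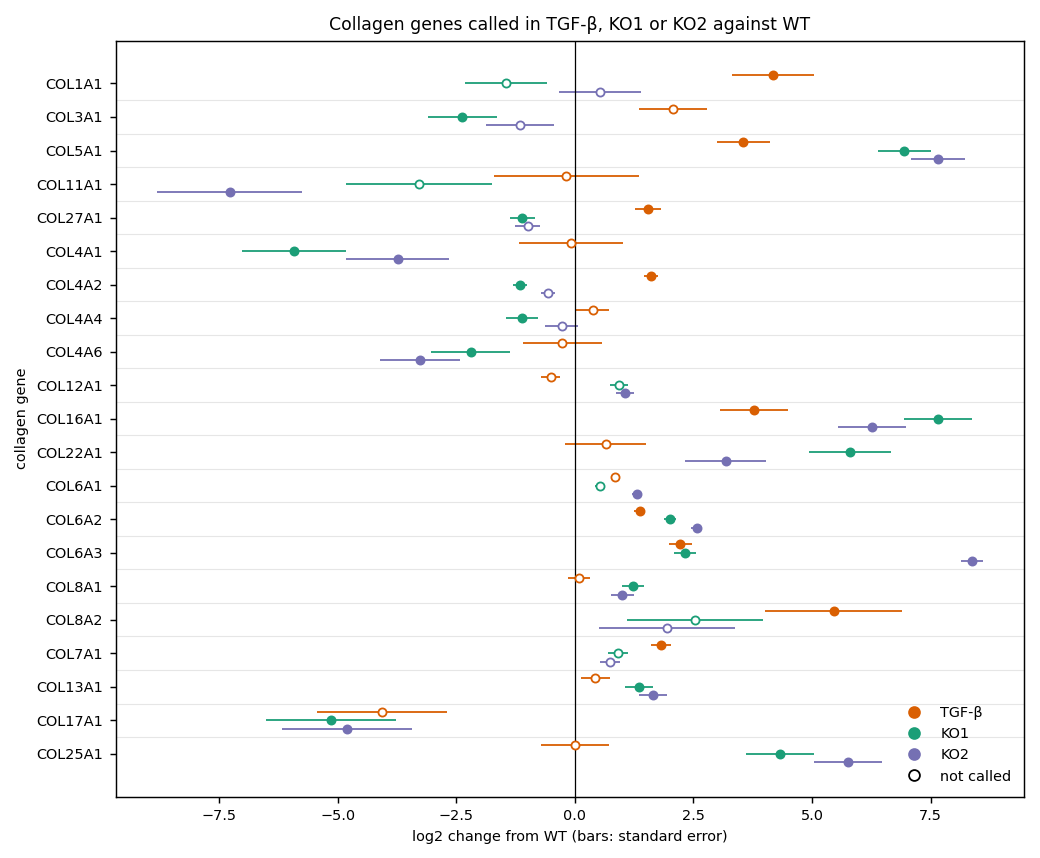
Log2 change from WT (horizontal axis) with its standard error for the 21 collagen genes called with TGF-β, in KO1 or in KO2, filled where called. COL5A1 and COL16A1 lie far to the right in both KO clones, COL6A3 does so in KO2, and COL4A1 lies to the left in both clones but near 0 with TGF-β, where its sign turns with the WT library left out.

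The fibrillar chain COL5A1 rose in both clones. It was at 35.8 and 5.42 in WT, 1873 and 1925 in KO1 and 3155 and 3027 in KO2. All KO libraries were above both WT libraries, with log2 change 6.95, SE 0.56, adjusted p = 1.41e-07 in KO1 and log2 change 7.65, SE 0.56, adjusted p = 8.92e-08 in KO2, and it came to 5.69 and 6.39 without WT replicate 2, and 8.21 and 8.91 without WT replicate 1. The 150 bases upstream of its start, chr9:134641653-134641802 on the plus strand of GRCh38.p14 in RefSeq, are shown for this member, which had the largest log2 rise in KO1 and KO2 after COL16A1 and COL6A3 respectively, and hold none of the letters searched.
COL5A1: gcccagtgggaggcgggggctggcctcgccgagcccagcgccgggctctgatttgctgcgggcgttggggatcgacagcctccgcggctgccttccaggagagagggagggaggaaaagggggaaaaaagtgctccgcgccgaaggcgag
For COL1A1 the direction depended on the WT library. It was at 1042 and 815 in KO1 and 3751 and 3520 in KO2, between the WT libraries, and was not called in either clone (adjusted p = 0.203 and 0.713). Without WT replicate 1 its changes were 0.79 in KO1, under the size threshold, and 2.77 in KO2, called higher, whereas without WT replicate 2 they were -3.69 and -1.71, both called lower. COL27A1 was at 124 and 143 in KO1 and 131 and 159 in KO2, all below the WT libraries, with log2 change -1.11, SE 0.27, adjusted p = 0.0039 in KO1 and log2 change -0.99, SE 0.27, adjusted p = 0.0106 in KO2. The KO1 call was lost without WT replicate 1 (adjusted p = 0.0641), and KO2 was called without WT replicate 2 (-1.35). COL11A1 was at 7.43 and 29.3 in KO1 and 0 and 0 in KO2, at least 48.3-fold lower in KO2 than in WT (adjusted p = 0.00201), with fitted log2 changes of -6.62 without WT replicate 1 and -7.95 without WT replicate 2. COL3A1 was at 7.93 and 2.01 in WT and 0 and 0 in KO1, a fall of at least 1.66-fold (adjusted p = 0.0167), and was not called without WT replicate 1 (adjusted p = 0.169) or KO1 replicate 2 (adjusted p = 0.0554).

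Basement membrane chains were called lower or not called in the KO clones. COL4A2 was at 33424 and 31159 in KO1 and 52227 and 45785 in KO2, against 93505 and 55847 in WT, with log2 change -1.16, SE 0.15, adjusted p = 2.07e-05 in KO1 and log2 change -0.56, SE 0.15, adjusted p = 0.0111 in KO2. All KO values were below both WT values, and without WT replicate 1 the KO1 change was -0.79 and no longer past the size threshold. COL4A1 was at 20.4 and 8.49 in KO1 and 74.5 and 54.6 in KO2 (log2 change -5.92, SE 1.09, adjusted p = 0.000499 and log2 change -3.74, SE 1.09, adjusted p = 0.0177). Here WT replicate 1 was far above WT replicate 2, and without it the change was -3.15 in KO1, still called, and -0.96 in KO2, not called (adjusted p = 0.136). Without WT replicate 2 it was -8.70 and -6.52, and the KO2 call was lost without KO2 replicate 1 (adjusted p = 0.0573) or KO2 replicate 2 (adjusted p = 0.0895). The fitted COL4A1 difference in KO1 came to -6.51 without KO1 replicate 1 and -5.34 without KO1 replicate 2.

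COL4A6, the α6 chain, was at 63.1 and 97.0 in WT, 18.0 and 14.6 in KO1 and 6.44 and 8.11 in KO2 (log2 change -2.20, SE 0.83, adjusted p = 0.0487 and log2 change -3.27, SE 0.83, adjusted p = 0.00781). Its KO values were all below WT, but the KO1 call was lost without any 1 of the 4 libraries, with adjusted p from 0.0843 to 0.193, and the KO2 call without WT replicate 2 (adjusted p = 0.0579). COL4A4 was at 878 and 1026 in WT, 428 and 447 in KO1 and 745 and 815 in KO2, with log2 change -1.11, SE 0.34, adjusted p = 0.0166 in KO1. That call was lost without WT replicate 2 (adjusted p = 0.0931), KO1 replicate 1 (adjusted p = 0.0576) or KO1 replicate 2 (adjusted p = 0.0542). COL4A5 was at 1430 and 766 in WT, 1882 and 1669 in KO1 and 1836 and 1658 in KO2, and was not called, but without WT replicate 1 it was called higher (1.21 and 1.19). COL4A3 was at 137 and 131 in WT, 102 and 158 in KO1 and 106 and 114 in KO2, again without a call.

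Type VI chains COL6A2 and COL6A3 rose in both clones, and COL6A3 separated them. COL6A2 was at 2972 and 2089 in WT, 10310 and 9694 in KO1 and 15706 and 14005 in KO2 (log2 change 2.00, SE 0.12, adjusted p = 3.64e-09 and log2 change 2.57, SE 0.12, adjusted p = 4.75e-10). COL6A1 was at 1660 and 1385 in WT, 2153 and 2217 in KO1 and 3834 and 3663 in KO2, and was called in KO2 (log2 change 1.30, SE 0.09, adjusted p = 7.19e-08) but reached a log2 change of only 0.53 in KO1. Both genes were higher in all 4 KO libraries than in either WT library. COL6A3, the large α3 chain, was at 18.4 and 18.0 in WT, 90.4 and 98.6 in KO1 and 6441 and 6274 in KO2 (log2 change 2.31, SE 0.23, adjusted p = 1.57e-06 and log2 change 8.37, SE 0.23, adjusted p = 2.17e-12). The direct comparison of KO2 with KO1 called COL6A3 as its sole collagen gene (log2 change 6.06, SE 0.23, adjusted p = 8.04e-10), 1 of 33 members, where 6.97% of all tested genes were called in either direction. With the same total, 77.4% of all genes called between the clones were higher in KO2, against 64.5% in the scaling used here, and the median of all genes was 0.21. The 150 bases upstream of COL6A2, chr21:46097962-46098111 on the plus strand of GRCh38.p14 in RefSeq, are shown because this chain had the smallest standard errors among the members called in both clones. Capitals mark a TATA box 32 bases and GC boxes 58, 40 and 24 bases upstream of the start.
COL6A2: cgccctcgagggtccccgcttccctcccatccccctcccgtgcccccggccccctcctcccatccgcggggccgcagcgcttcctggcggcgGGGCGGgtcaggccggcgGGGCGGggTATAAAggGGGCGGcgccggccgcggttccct

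Among FACIT chains, COL16A1 was at 34.3 and 2.12 in WT, 2068 and 2143 in KO1 and 861 and 747 in KO2 (log2 change 7.65, SE 0.72, adjusted p = 6.95e-07 and log2 change 6.26, SE 0.72, adjusted p = 9.04e-06). All KO libraries were above both WT libraries, and without WT replicate 2 the changes were 5.90 and 4.51, and without WT replicate 1 9.40 and 8.01. COL22A1, a FACIT chain of tissue junctions, was at 8.96 and 0.170 in WT, 168 and 212 in KO1 and 28.2 and 31.7 in KO2 (log2 change 5.79, SE 0.86, adjusted p = 7.21e-05 and log2 change 3.18, SE 0.86, adjusted p = 0.0114). In KO1 it came to 7.34 without WT replicate 1 and 4.25 without WT replicate 2. Its KO2 change was 4.72 without WT replicate 1, and the KO2 call was lost without WT replicate 2 (1.63, adjusted p = 0.179) or KO2 replicate 2 (adjusted p = 0.0586). COL12A1, a FACIT chain of dense connective tissue, was at 1097 and 954 in WT, 2140 and 1771 in KO1 and 2261 and 2003 in KO2 and just passed the size threshold in KO2 (log2 change 1.06, SE 0.20, adjusted p = 0.000759). Without WT replicate 2 or KO2 replicate 1 it fell below that threshold, at 0.96 and 0.97, and in KO1 it was called without WT replicate 1 (1.03).

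Of the remaining types, COL8A1, a network chain, was at 2268 and 4722 in WT, 8670 and 6771 in KO1 and 7174 and 5992 in KO2 (log2 change 1.23, SE 0.23, adjusted p = 0.000642, and just past the size threshold in KO2, adjusted p = 0.0042). WT replicate 1 was the lowest of all, and without it the changes were 0.70 and 0.47 and were below the size threshold, as the KO2 change was without KO2 replicate 1 (0.87). The transmembrane chain COL13A1 was at 38.3 and 48.1 in WT, 82.0 and 151 in KO1 and 154 and 121 in KO2 (log2 change 1.36, SE 0.30, adjusted p = 0.00214 and log2 change 1.65, SE 0.30, adjusted p = 0.00065). Without KO1 replicate 2 its KO1 change was 0.92. COL25A1, another transmembrane chain, was at 0 in both WT libraries, at 8.69 and 40.4 in KO1 and at 95.6 and 29.4 in KO2, at least 9.13-fold and 23.3-fold higher. The replicates of each clone differed, so that in KO1 the fitted value came to 5.37 without KO1 replicate 1 and 3.28 without KO1 replicate 2, and in KO2 4.92 without KO2 replicate 1 and 6.59 without KO2 replicate 2. COL17A1, the hemidesmosomal collagen of epithelia, went the other way, from 34.0 and 34.6 in WT to 0 and 0 in KO1 and 0 and 0.607 in KO2, at least 11.4-fold and 9.65-fold lower. Low COL17A1 was not limited to the KO clones. It was at 3.42 and 0 with TGF-β (log2 change -4.07, adjusted p = 0.0547, not called), at 2.12 and 12.3 in eGFP and at 14.4 at most in every library outside WT. The KO2 call of COL17A1 was lost without WT replicate 1 (adjusted p = 0.0588), WT replicate 2 (adjusted p = 0.0636) or KO2 replicate 1 (adjusted p = 0.0859). COL7A1 was at 32377 and 30877 in KO1 and 30915 and 25561 in KO2, above WT but below the size threshold in both clones, which it passed without WT replicate 1 (1.41 and 1.24).

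Fibroblast genes moved with SETD2 loss as well. The 9 listed genes summed to 534 and 313 in WT, 1190 and 1350 after TGF-β, 235610 and 222690 in KO1, 99951 and 96561 in KO2 and 38438 and 36160 in the labelled KO2 rescue. Nearly all of this was DCN, a collagen-binding proteoglycan, at 477 and 289 in WT and 234810 and 221610 in KO1. Of the other listed genes PI16 was at 0 in every library and TCF21 at 3.7 at most, and PDGFRB, MFAP5 and MEOX1 stayed at 34.2 or below in WT and the KO clones. THY1 rose from 14.3 and 15.0 in WT to 203 and 138 in KO1 and 1136 and 1135 in KO2. LUM went from 8.68 and 0 to 359 and 768 and to 328 and 376, and PDGFRA from 7.84 and 2.86 to 231 and 139 and to 67.9 and 57.2. The summed counts of the list outside DCN were above WT in both KO clones and in eGFP. DCN was at 98373 and 94978 of the 99951 and 96561 in KO2. In eGFP DCN was at 1485.1 and 1865.5 of 3255 and 3830, and THY1 at 1726 and 1895. Kidney epithelial markers summed to 39857 and 43483 in WT, 19492 and 17876 in KO1 and 27007 and 25995 in KO2, so this sum was lower in both clones. KRT8, KRT19 and EPCAM fell, but PAX8 rose, from 2322 and 3743 in WT to 6382 and 6561 in KO1 and 5056 and 5096 in KO2. The proximal tubule list had a higher sum in both clones, at 1023.3 and 1271.7 in WT, 2021.7 and 2266.1 in KO1 and 2042.5 and 1687.6 in KO2. Within it GGT1 was at 666 and 893 in WT and 711 and 1037 in KO1, so other members also rose there. The endothelial list summed to 4.99 and 40.7 in WT, 126 and 145 in KO1 and 158 and 172 in KO2, mostly KDR in both clones (123 and 103 in KO1 and 145 and 126 in KO2). The leukocyte list summed to 147 and 106 in WT, 371 and 222 in KO1 and 196 and 148 in KO2, nearly all CD68. For that list KO2 replicate 2 was level with WT replicate 1. The part of these genes in the collagen results was not tested.

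SETD2 loss and TGF-β were also set against each other, with both KO clones averaged, to see where the conditions differ. Of 33 members 18 were called, 8 higher in KO (10.3% of all tested genes) and 10 lower (9.83%). COL1A1 was lower by a wide margin in KO, at 815 to 3751 against 45007 to 46598 with TGF-β (log2 change -4.64, SE 0.75, adjusted p = 0.00016). COL4A1 (log2 change -4.74, SE 0.95, adjusted p = 0.00105) was lower too, as was COL3A1, at 0 to 1.39 in KO and up to 22.8 with TGF-β, at least 5.87-fold lower (adjusted p = 0.000186). COL11A1 had the largest fitted fall, with TGF-β libraries at 90.1 to 205 and KO libraries at 0 to 29.3 (log2 change -5.10, SE 1.33, adjusted p = 0.00715), which was -5.69 without TGF-β replicate 1 and -4.51 and not called without TGF-β replicate 2 (adjusted p = 0.0775). COL4A2, though not among the most changed, was at 218210 to 219610 with TGF-β and at 31159 to 52227 in KO (log2 change -2.46, SE 0.13, adjusted p = 1.38e-09), and COL27A1 had a log2 change of -2.59. The groups did not overlap for COL1A1, COL4A2 or COL27A1.

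Higher in KO than with TGF-β were COL25A1, at 0 with TGF-β and 8.69 to 95.6 in KO, COL22A1 (log2 change 3.84, SE 0.75, adjusted p = 0.000839), COL5A1 (log2 change 3.75, SE 0.49, adjusted p = 2.23e-05) and COL16A1 (log2 change 3.18, SE 0.62, adjusted p = 0.000872). Without TGF-β replicate 1 the COL22A1 change was 2.97, and without TGF-β replicate 2 4.71. For COL5A1, TGF-β libraries had 162 to 200 and KO libraries 1873 to 3155. COL6A3 was also called (3.12), but this average hides the clone difference, since KO1 at 90.4 and 98.6 overlapped TGF-β at 103 and 76.5.

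The libraries labelled KO2 rescue were set against the KO2 clone whose name they carry. Of 33 members 2 were called higher and 0 lower, against 1.65% and 2.52% of all tested genes. The kidney epithelial list summed to 44326 and 45349 in these libraries and 27007 and 25995 in KO2. The fibroblast list summed to 38438 and 36160, against 99951 and 96561. The proximal tubule list was lower as well, at 1325 and 1172 against 2042.5 and 1687.6. The part of these lists in the comparison was not tested. COL6A1 went from 3834 and 3663 to 8844 and 9830 (log2 change 1.31, SE 0.09, adjusted p = 2.75e-07) and COL13A1 from 154 and 121 to 330 and 391 (log2 change 1.39, SE 0.30, adjusted p = 0.0073), and neither overlapped. The COL13A1 call was lost without KO2 replicate 2 (adjusted p = 0.0741) or labelled KO2 rescue replicate 2 (adjusted p = 0.0735). Other members differed without a call. COL5A1 was at 7477 and 7279, against 3155 and 3027 in KO2 (adjusted p = 0.208), and COL12A1 at 3980 and 4197, against 2261 and 2003 (log2 change 0.94, SE 0.20, adjusted p = 0.00577), with no overlap for either gene. COL6A3 was at 4062 and 3787, COL16A1 at 645 and 655 and COL1A1 at 3087 and 3017, each below KO2. At an unadjusted p below 0.05 there were 10 of 33 members, and 21.9% of all tested genes.

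The rescue clones Rescue1 and Rescue2 carry SETD2 again, and their collagen levels were set first against KO2 and then against the eGFP line, which has the same serum. Against KO2, from which serum also differs, 8 of 33 members were called, 2 higher and 6 lower, where 7.84% and 9.65% of all tested genes were. Against eGFP 12 were called, 7 higher and 5 lower, where 6.47% and 6.66% were. With libraries scaled to the same total the median of all genes was 0.26 against KO2, 5 members were then higher and 4 lower, and 64.2% of all called genes were higher in place of 44.8%. The fibroblast list went from 99951 and 96561 in KO2 to 526 to 756 in the rescue clones, nearly all through DCN, and the kidney epithelial list went from 27007 and 25995 to 41297 to 45519, where eGFP had 3255 and 3830 and 26636 and 28259. Unlike the epithelial list, proximal tubule markers fell, from 2042.5 and 1687.6 to 726 to 975, with 1119 and 1357 in eGFP. The leukocyte list fell from 196 and 148 to 2.20 to 56.9, with 139 and 77.2 in eGFP. KDR went from 145 and 126 to 1.62 to 42.0. The part of these genes in the rescue results was not tested. On the deposited values limma called 0 members (0.425% of all genes) against KO2, with 16 members and 43.8% of all genes at an unadjusted p below 0.05, and 3 (0.24%) against eGFP, and with only the groups compared 13 (16%) and 10 (11.2%). Against eGFP the same-total scaling left the members at 7 and 5, with a median over all genes of 0.10.

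**Figure D5:**
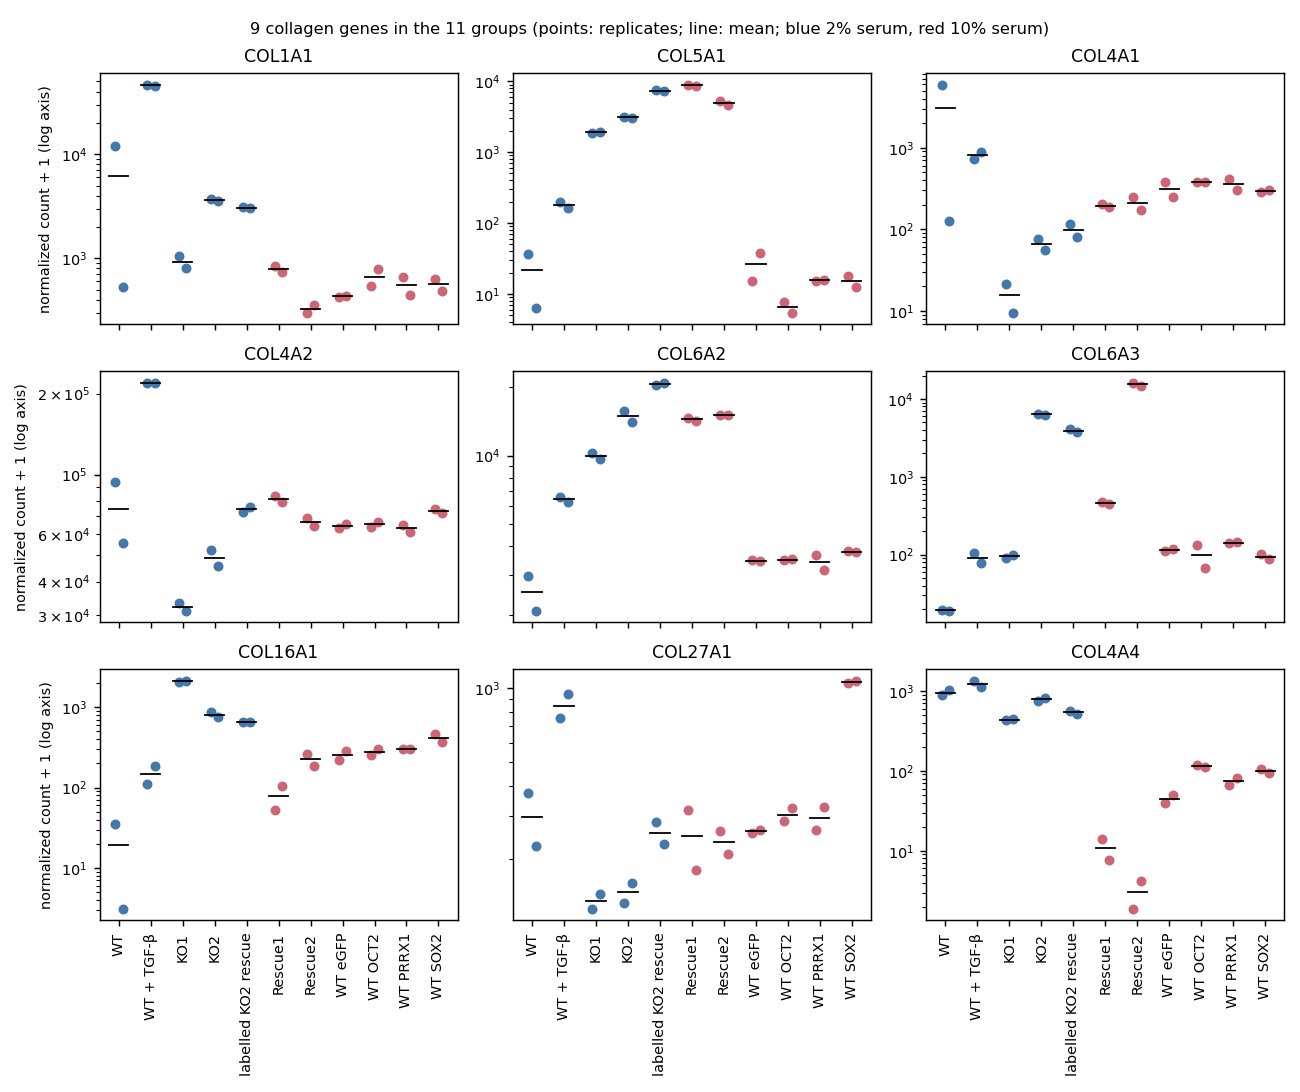
Normalized count + 1 (logarithmic vertical axis) of 9 collagen genes in the 11 groups, with a point per replicate, a line at the mean, blue for 2% and red for 10% serum. COL5A1 and COL6A2 lie far above eGFP in the rescue clones, COL6A3 differs between KO1 and KO2 and between Rescue1 and Rescue2, COL27A1 is high with TGF-β and in the SOX2 line, and COL4A4 is lower in all 10% serum groups.

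COL5A1, COL6A1 and COL6A2 were called higher in the rescue clones than in eGFP and were not called against KO2. COL5A1 was at 8979 and 8555 in Rescue1 and 5237 and 4572 in Rescue2, but at 14.3 and 36.8 in eGFP (log2 change 8.09, SE 0.49, adjusted p = 1.55e-08). Without eGFP replicate 1 that value came to 7.43, and without eGFP replicate 2 8.74. COL6A2 was at 14206 to 15096 in the rescue clones and 3472 and 3462 in eGFP (log2 change 2.09, SE 0.10, adjusted p = 1.38e-09), and COL6A1 at 5913 to 6549 and, in eGFP, 1854 and 2158 (log2 change 1.66, SE 0.08, adjusted p = 1.59e-09). No rescue library overlapped eGFP for these 3 genes.

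COL6A3 was at 469 and 443 in Rescue1, 16213 and 14800 in Rescue2 and 110 and 116 in eGFP (log2 change 4.54, SE 0.20, adjusted p = 5.43e-10). Rescue1 was below both KO2 libraries and Rescue2 above them, so the averaged fall from KO2 (log2 change -1.26, SE 0.20, adjusted p = 0.000201) describes neither clone. The clones were compared directly, where 3 of 33 members were called and 0.994% of all tested genes in either direction. Besides COL6A3 (log2 change 5.08, SE 0.23, adjusted p = 2.82e-08) these were COL25A1, at 146 and 199 in Rescue1 and 11.4 and 4.84 in Rescue2 (log2 change -4.33, SE 0.72, adjusted p = 0.00431), and COL4A4, at 13.2 and 6.58 in Rescue1 and 0.881 and 3.23 in Rescue2 (log2 change -1.88, SE 0.34, adjusted p = 0.00796). COL4A4 was no longer called without Rescue1 replicate 1 (adjusted p = 0.105) or Rescue2 replicate 1 (adjusted p = 0.0983), with a change of -2.46 without Rescue2 replicate 2, nor COL25A1 without Rescue2 replicate 2 (adjusted p = 0.0645). COL25A1 was at 0 in both eGFP libraries, and COL22A1, at 0 in eGFP as well, was at 3.51 to 20.2 in them.

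Of the 6 basement membrane chains, 2 were called lower against KO2 (COL4A3 and COL4A4) and 3 against eGFP (COL4A4, COL4A5 and COL4A6), with 0 called higher in either. COL4A4 was at 0.881 to 13.2 in the rescue clones, against 745 and 815 in KO2 (log2 change -7.17, SE 0.29, adjusted p = 1.48e-10) and 39.1 and 48.7 in eGFP (log2 change -3.04, SE 0.29, adjusted p = 1.98e-06). COL4A3 was at 0 to 0.607 and at 106 and 114 in KO2, at least 23.6-fold lower, and at 2.59 and 0 in eGFP. COL4A6 was at 1.58 to 40.9 against 149 and 132 in eGFP (log2 change -3.78, SE 0.72, adjusted p = 0.00105), and its change was -2.77 without Rescue2 replicate 1 and -4.79 without Rescue2 replicate 2. All of these rescue values lay below eGFP except for COL4A3, where both groups were at or near 0.

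COL4A5 was at 685 to 1121 in the rescue clones and 1879 and 2150 in eGFP (log2 change -1.19, SE 0.19, adjusted p = 0.00023). COL18A1, the multiplexin that holds endostatin, was at 227 to 713 in the rescue clones and 803 and 1075 in eGFP (log2 change -1.43, SE 0.42, adjusted p = 0.0178), a call lost without Rescue1 replicate 2 (adjusted p = 0.0588), Rescue2 replicate 1 (adjusted p = 0.0504), eGFP replicate 1 (adjusted p = 0.0566) or eGFP replicate 2 (adjusted p = 0.138). COL3A1 was at 0 in all 4 rescue libraries and 3.38 and 5.36 in eGFP (adjusted p = 0.00918), and not called without eGFP replicate 2 (adjusted p = 0.0829). COL4A2 and COL4A1 were not called against KO2 or eGFP, with COL4A2 at 64264 to 82911, which is above KO2 but under the size threshold (log2 change 0.59, SE 0.13, adjusted p = 0.00289), and COL4A1 at 169 to 250.

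COL1A1 and COL16A1 came down relative to KO2. COL1A1 was at 299 to 839 in the rescue clones against 3751 and 3520 in KO2 (log2 change -2.84, SE 0.75, adjusted p = 0.00814), and at 427 and 436 in eGFP. COL16A1 was at 51.0 and 103 in Rescue1 and 261 and 187 in Rescue2 against 861 and 747 in KO2 (log2 change -2.65, SE 0.62, adjusted p = 0.00385), and at 223 and 283 in eGFP. Neither gene was called against eGFP, and for both the rescue values were below every KO2 value. The COL1A1 fall was not called without KO2 replicate 1 (adjusted p = 0.0588). COL7A1 fell from 30915 and 25561 in KO2 to between 12698 and 14030 in the rescue clones (log2 change -1.05, SE 0.18, adjusted p = 0.000394), below the size threshold without KO2 replicate 1 (-0.91). Called higher were COL13A1, at 201 to 368 (log2 change 1.12, SE 0.26, adjusted p = 0.00357), whose call was lost without KO2 replicate 2 (0.95) or Rescue1 replicate 2 (0.97), and COL6A5, a type VI chain at 3.23 to 10.5 in the rescue clones and 2.20 and 0 in KO2, a rise of at least 2.16-fold (adjusted p = 0.0314). COL6A5 was not called without KO2 replicate 2 (adjusted p = 0.325), Rescue1 replicate 2 (adjusted p = 0.0922) or Rescue2 replicate 1 (adjusted p = 0.0744).

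The eGFP line was compared with untransduced WT to show what vector, selection and 10% serum together did to these genes. Of 33 members 7 were called, 4 higher and 3 lower, against 6.49% and 6.24% of all tested genes. COL4A4 fell from 878 and 1026 to 39.1 and 48.7 (log2 change -4.41, SE 0.34, adjusted p = 2.92e-07) and COL4A3 from 137 and 131 to 2.59 and 0, at least 36.8-fold, with fitted log2 changes of -7.07 and -5.23 without eGFP replicate 1 and 2. This head-to-head pair was low in all 12 libraries grown in 10% serum, with COL4A4 at 0.881 to 118 and COL4A3 at 0 to 14.0, and no library in 2% serum was in that range. COL4A5, by contrast, was at 1879 and 2150 in eGFP and was not called. Without WT replicate 1, COL4A5 (1.39) and COL5A1 (1.91, but -0.61 without WT replicate 2) were called higher. Without WT replicate 2, COL8A1 was called higher (1.45), and COL22A1 and COL4A1 lower, with COL4A1 at -4.27 there and at 1.28 without WT replicate 1. The fibroblast list summed to 3255 and 3830 in eGFP and the kidney epithelial list to 26636 and 28259, against 534 and 313 and 39857 and 43483 in WT. Their part in these results was not tested.

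COL1A1 was called lower in eGFP (log2 change -2.54, SE 0.86, adjusted p = 0.0412), but this rested on WT replicate 1, since it came to -0.30 without it (adjusted p = 0.452) and -4.78 without WT replicate 2. It was likewise not called without eGFP replicate 1 (adjusted p = 0.142) or eGFP replicate 2 (adjusted p = 0.122). Higher in eGFP were COL16A1 (log2 change 4.58, SE 0.72, adjusted p = 0.000235), COL13A1 (log2 change 2.73, SE 0.30, adjusted p = 9.58e-06), COL6A3 (log2 change 2.58, SE 0.23, adjusted p = 1.52e-06) and COL12A1 (log2 change 1.13, SE 0.20, adjusted p = 0.000561). COL16A1 was at 223 and 283 and COL6A3 at 110 and 116 in eGFP, so both were above WT without SETD2 loss. For COL16A1 it came to 6.34 without WT replicate 1 and 2.83 without WT replicate 2.

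Few collagen genes were called with ectopic SOX2, OCT2 or PRRX1. SOX2 against eGFP called 1 of 33 members, where 0.0206% of all tested genes, 3 in number, were called in either direction. That member was COL27A1, at 1049 and 1074 in the SOX2 line and 256 and 261 in eGFP (log2 change 2.03, SE 0.27, adjusted p = 0.0102). The OCT2 and PRRX1 lines had COL27A1 at 262 to 327, so both SOX2 libraries were above every other transduced library. The call was lost without eGFP replicate 1 (adjusted p = 0.072), SOX2 replicate 1 (adjusted p = 0.0714) or SOX2 replicate 2 (adjusted p = 0.0756), with a log2 change of 2.02 to 2.05. OCT2 called 0 members (0.0343% of all tested genes) and PRRX1 called 0 (0.0411%), with 3 and 1 of 33 members at an unadjusted p below 0.05 in limma, where 7.03% and 4.61% of all tested genes were. In these lines COL5A1 was at 4.41 to 16.9, COL6A2 at 3152 to 3827 and COL6A3 at 65.8 to 142.

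The same members had these levels in the remaining libraries, beginning with the fibrillar chains. COL1A1 was at 839 and 744 in Rescue1, 299 and 352 in Rescue2, 546 and 781 with OCT2, 658 and 439 with PRRX1 and 637 and 484 with SOX2. COL5A1 was at 6.68 and 4.41 with OCT2, 14.3 and 14.9 with PRRX1 and 16.9 and 11.5 with SOX2. For COL11A1 the counts were 0 and 11.6 in labelled KO2 rescue, 5.87 and 20.2 in Rescue1, 2.16 and 9.59 in Rescue2, 116 and 41.2 in eGFP, 0 and 35.5 with OCT2, 13.5 and 93.8 with PRRX1 and 37.5 and 19.7 with SOX2. COL1A1 and COL5A1 were far lower in the transduced WT lines than with TGF-β or in KO2, while COL11A1 varied widely between replicates. COL27A1 was at 281 and 230 in labelled KO2 rescue, 315 and 179 in Rescue1, 259 and 208 in Rescue2, 284 and 321 with OCT2 and 262 and 327 with PRRX1. All of these COL27A1 values lay below both SOX2 libraries.

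Of the basement membrane chains, COL4A2 was at 72795 and 75773 in labelled KO2 rescue, 82911 and 79136 in Rescue1, 69060 and 64264 in Rescue2, 63149 and 65548 in eGFP, 63755 and 66683 with OCT2, 64892 and 61261 with PRRX1 and 74161 and 71798 with SOX2. COL4A1 was at 117 and 79.5 in labelled KO2 rescue, 205 and 184 in Rescue1, 250 and 169 in Rescue2, 382 and 245 in eGFP, 376 and 380 with OCT2, 408 and 300 with PRRX1 and 284 and 304 with SOX2. COL4A2 was above both KO2 libraries in each of these groups, and COL4A1 was, among these groups, lowest in the labelled KO2 rescue. COL4A4 was at 1345 and 1121 after TGF-β, 563 and 511 in labelled KO2 rescue, 118 and 112 with OCT2, 65.6 and 80.2 with PRRX1 and 106 and 93.7 with SOX2. COL4A5 was at 1590 and 1702 after TGF-β, 1529 and 1601 in labelled KO2 rescue, 1063 and 1121 in Rescue1, 685 and 740 in Rescue2, 1744 and 1929 with OCT2, 1636 and 2241 with PRRX1 and 1710 and 2167 with SOX2. For COL4A6 the counts were 59.4 and 70.9 after TGF-β, 13.4 and 19.1 in labelled KO2 rescue, 10.6 and 7.93 in Rescue1, 1.58 and 40.9 in Rescue2, 124 and 138 with OCT2, 98.6 and 103 with PRRX1 and 116 and 158 with SOX2. COL4A5 was lowest in Rescue2, and for COL4A6 the Rescue2 replicates lay far apart.

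Of the FACIT chains, COL12A1 was at 833 and 617 after TGF-β, 3980 and 4197 in labelled KO2 rescue, 3171 and 3162 in Rescue1, 3412 and 2517 in Rescue2, 2135 and 2348 in eGFP, 2049 and 2014 with OCT2, 2420 and 1593 with PRRX1 and 2218 and 1747 with SOX2. COL16A1 was at 253 and 297 with OCT2, 297 and 297 with PRRX1 and 458 and 371 with SOX2. COL22A1 was at 1.92 and 8.76 after TGF-β, 30.1 and 18.7 in labelled KO2 rescue, 3.51 and 4.81 in Rescue1 and 7.53 and 20.2 in Rescue2. COL22A1 was at 0 in all 8 libraries of the transduced WT lines, and COL12A1 was lowest with TGF-β. Of type VI, COL6A1 was at 6253 and 5913 in Rescue1, 6549 and 6533 in Rescue2, 2123 and 2165 with OCT2, 2013 and 1836 with PRRX1 and 2119 and 1924 with SOX2. COL6A2 was at 20470 and 20900 in labelled KO2 rescue, 14645 and 14206 in Rescue1, 15057 and 15096 in Rescue2, 3470 and 3533 with OCT2, 3677 and 3152 with PRRX1 and 3827 and 3769 with SOX2. COL6A3 was at 133 and 65.8 with OCT2, 141 and 142 with PRRX1 and 101 and 85.6 with SOX2. All 3 type VI chains were lower in the transduced WT lines than in any rescue library.

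Among the remaining types, COL8A1 was at 3576 and 3375 after TGF-β, 6249 and 6588 in labelled KO2 rescue, 6146 and 7045 in Rescue1, 6861 and 6886 in Rescue2, 5773 and 6671 in eGFP, 7094 and 7101 with OCT2, 6085 and 4887 with PRRX1 and 6680 and 7024 with SOX2. COL8A2 was at 19.4 and 11.2 in KO1, 0 and 108 in KO2, 78.7 and 88.0 in labelled KO2 rescue, 41.2 and 30.0 in Rescue1, 37.5 and 39.3 in Rescue2, 24.4 and 24.8 in eGFP, 38.0 and 26.3 with OCT2, 39.3 and 51.9 with PRRX1 and 26.7 and 41.4 with SOX2. COL7A1 was at 15085 and 15949 in labelled KO2 rescue, 14030 and 12698 in Rescue1, 13831 and 13970 in Rescue2, 15726 and 18278 in eGFP, 20246 and 22398 with OCT2, 18428 and 16665 with PRRX1 and 21529 and 21248 with SOX2. COL8A1 and COL7A1 were expressed throughout, with COL8A1 lowest after TGF-β and COL7A1 lowest in Rescue1 among the libraries just given, and the KO2 replicates of COL8A2 lay far apart. COL13A1 was at 58.6 and 57.7 after TGF-β, 201 and 308 in Rescue1, 348 and 368 in Rescue2, 240 and 354 in eGFP, 353 and 399 with OCT2, 277 and 309 with PRRX1 and 251 and 365 with SOX2. COL25A1 was at 85.2 and 97.2 in labelled KO2 rescue and at 0 in every WT, TGF-β and transduced WT library. COL13A1 was lower after TGF-β than in any of the rescue or transduced libraries.

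Collagen is modified, folded, exported, trimmed and cross-linked by other proteins, and the genes for these steps were counted by list. Over all tested genes, the TGF-β libraries had 3.58% higher and 4.26% lower, while KO1 had 12% and 13.1% and KO2 had 9.02% and 7.29%, and with lists this short the counts are descriptions only. Of 95 called values of the pathway genes named by rule over the 13 comparisons, 85 were no longer called on the deposited values, 45 with only the groups compared and 10 with the same total. Of 13 tested genes for prolyl and lysyl modification, 2 were higher and 0 lower with TGF-β, while KO1 had 4 and 0 and KO2 2 and 1. P4HA2, a prolyl 4-hydroxylase subunit, was at 4061 and 2425 in WT, 8076 and 8514 after TGF-β and 8103 and 9004 in KO1, with log2 changes of 1.40 and 1.44. PLOD2, a lysyl hydroxylase, had a log2 change of 1.84 in KO1. Among 12 genes for folding and export, 3 were higher and 1 lower with TGF-β, while KO1 had 2 and 0 and KO2 4 and 0. CREB3L1, a transcription factor of secretory and collagen genes, was at 204 and 73.3 in WT, 472 and 558 after TGF-β, 951 and 1087 in KO1, 868 and 899 in KO2 and 996 to 1224 in the rescue clones, against 105 and 163 in eGFP (log2 change 3.05, SE 0.29, adjusted p = 1.56e-06). Its changes from WT were 2.06, 3.04 and 2.84 for TGF-β, KO1 and KO2, and 2.79, 3.78 and 3.57 without WT replicate 1 or 1.32, 2.31 and 2.11 without WT replicate 2. SERPINH1, the collagen chaperone HSP47, had log2 change 1.05, SE 0.08, adjusted p = 2.33e-07 in KO2, but 0.82 with the same total and 0.89 without WT replicate 2.

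Of 7 tested genes for propeptide removal, 1 was higher and 1 lower with TGF-β, while KO1 had 1 and 3 and KO2 0 and 2. BMP1, which cleaves the carboxyl propeptide, was at 2783 and 1658 in WT and 8025 and 7548 with TGF-β (log2 change 1.86, SE 0.16, adjusted p = 1.66e-06). Cross-linking genes, 6 tested, had 3 higher and 0 lower with TGF-β, and 3 higher and 1 lower in each KO clone. TGM2, a transglutaminase, was at 248 and 402 in WT, 836 and 949 after TGF-β, 14890 and 14904 in KO1 and, in KO2, 14082 and 11756 (log2 change 5.56, SE 0.20, adjusted p = 1.4e-11 and log2 change 5.34, SE 0.20, adjusted p = 4.34e-11). LOX, the classical lysyl oxidase, was called higher in all 3 comparisons, whereas LOXL1 was called lower in both KO clones, at 298 and 323 in WT, 42.8 and 65.5 in KO1 and, in KO2, 164 and 94.1.

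For degradation and uptake, 6 genes were tested, with 2 higher and 0 lower with TGF-β, while KO1 had 2 and 1 and KO2 1 and 1. MMP2, which degrades type IV collagen, was at 3064 and 599 in WT, 8980 and 9138 after TGF-β, 7391 and 6643 in KO1 and, in KO2, 11327 and 11856, and was called higher in each (2.74, 2.37 and 3.10 on the log2 scale). Without WT replicate 1 these MMP2 changes were 3.92, 3.55 and 4.27, and without WT replicate 2 1.56, 1.19 and 1.92. MMP9, the other type IV collagenase, was at 1126 and 722 in WT and 2364 and 2642 with TGF-β, but 0 and 0 in KO1 and 7.45 and 4.93 in KO2. It was also at 2.62 at most in every transduced WT library (eGFP against WT: log2 change -9.14, limma adjusted p = 1.49e-06) and at 1.72 to 23.5 in the rescue clones. Among 7 collagen receptor genes, 4 were higher with TGF-β and 2 in each KO clone, with 0 lower in all 3. ITGA1, an integrin chain that binds type IV collagen, was at 224 and 129 in WT, 330 and 402 after TGF-β, 2958 and 2780 in KO1 and, in KO2, 2350 and 1979 (log2 change 4.07, SE 0.25, adjusted p = 7.71e-09 and log2 change 3.66, SE 0.25, adjusted p = 4.7e-08), and at 126 to 213 in the rescue clones. ITGA11, an integrin chain for fibrillar collagen, was called higher in all 3 comparisons, from 72.6 and 1.99 in WT to 435 and 601 after TGF-β, 350 and 651 in KO1 and, in KO2, 163 and 196. Without WT replicate 1 the ITGA11 changes were 7.42, 7.32 and 5.91 on the log2 scale, and without WT replicate 2 they were 2.80, 2.70 and 1.29, the last not called (adjusted p = 0.273).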

How the data were processed

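RNA-seq libraries (TruSeq Stranded mRNA, 150-base paired reads) from 22 samples were quantified by the authors with Salmon 1.9.0 against Ensembl release 94 transcripts (GRCh38) and processed with DESeq2 1.26.0. The deposited values are on a log2 scale, from 11.32 in every library to 21.28, and have the form of DESeq2's variance-stabilizing transformation, which is not named in the sources used here. Inverting that form gave normalized counts. Read totals are not in the table, so the worth of 1 read was estimated from the lowest values, and 3 reads set the floor for bounds. Floors cover counting error only.

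The 14585 genes that reached 10 normalized counts in 2 or more libraries were fitted with limma 3.58.1 in R 4.3.3 (lmFit, eBayes with trend) on log2(normalized count + 1), all 22 libraries together, with a mean per group, and 13 comparisons were drawn from it. Each list of p-values was adjusted by Benjamini-Hochberg over all genes tested. In simulated counts the same fixed spread was given to all libraries, and log2 changes of 2 were planted in 200 genes of the TGF-β group. Of these 172 were recovered (86%), with 10 false calls among 14585 genes. The wide gap between the WT replicates was not simulated, so these rates do not describe the real comparison with WT. Coordinates are from GENCODE 44 on GRCh38, which matched 33878 of 36859 genes, and per-kilobase levels use the longest transcript. RefSeq promoter windows on GRCh38.p14 matched 32 members; COL1A1, COL1A2, COL2A1, COL3A1, COL5A2, COL6A1, COL6A5, COL8A1, COL9A3, COL14A1, COL20A1 and COL22A1 were not matched.

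Values in every library are given for members called in TGF-β, KO1 or KO2 against WT with a group mean of at least 100, and for the 10 members highest per kilobase. In other comparisons the 4 called members with the largest change per direction are named, and up to 3 called genes per pathway list, with others named after their values were seen. The members, the marker lists and the pathway lists were chosen with earlier results of these data known. Alternatives were other pseudocounts (0.5 and 5), filters (none, or a mean of at least 50), scalings (same total, quantile), the deposited values, fits of only the groups compared, a replicate block and leaving out each library.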

Additional observations from a re-analysis of the deposited data

Results flagged for a closer look

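COL6A3 differed between the SETD2 knockout clones and between the rescue clones, by a test of the difference itself. Between KO2 and KO1 the log2 change was 6.06, and between Rescue2 and Rescue1 it was 5.08, with both libraries of the higher clone above both of the lower clone in each case. Between the rescue clones COL25A1 differed by -4.33 and COL4A4 by -1.88, each lower in Rescue2. The COL4A4 call was lost without replicate 1 of either rescue clone, and the COL25A1 call without Rescue2 replicate 2. Fitted on the rescue clones alone, 1 member was called between them, which was the only call among all 14585 genes (0.00686%). Each clone is 1 line, and KO1 and KO2 carry different SETD2 alleles, so clone, allele and any difference in culture cannot be told apart.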

How the results depend on the processing

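None of the 90 called member values reversed direction under an alternative. The number no longer called was 71 on the deposited values, 35 when only the groups compared were fitted, 8 with the same total, 4 with quantile normalization, 3 with no filter, 2 with each other pseudocount and 0 of 70 with a mean of at least 50. On the deposited scale, whose floor compresses the changes of low genes, 3 members were called with TGF-β, 5 in KO1, 3 in KO2, 2 for KO against TGF-β, 0 for rescue against KO2, 3 against eGFP, 1 for Rescue2 against Rescue1, 0 for labelled KO2 rescue, 1 for eGFP against WT and 0 for SOX2 in limma, the counts of 0 having 16, 11 and 4 of 33 members at an unadjusted p below 0.05, where 43.8, 22.9 and 6.82% of all genes were. In the same order that scale called 31, 178, 94, 134, 62, 35, 1, 35, 36 and 0 of all 14585 genes. With only the groups compared, the counts were 0 for TGF-β, 5 for KO1, 13 for rescue against KO2, 1 for Rescue2 against Rescue1 and 0 for SOX2, with 11 and 9 of 33 members at such a p for TGF-β and SOX2 (23.1 and 8.52% of all genes), and 0, 1912, 2338, 1 and 0 of all genes were called. KO2 against KO1 gave 2 with a pseudocount of 5 (1059 of all 14585 genes), 3 with no filter (1147 of 21519) and 2 with quantile normalization (966 of 14585). Of 95 called values of named pathway genes, 85, 45 and 10 were no longer called on the deposited values, with only the groups compared and with the same total, and 0 reversed. The cause was not tested except as stated.

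Without 1 library at a time, the members called were 8 to 11 for TGF-β, 12 to 14 for KO1, 11 to 14 for KO2, 1 to 3 for KO2 against KO1, 13 to 17 for KO against TGF-β, 6 to 9 for rescue against KO2, 10 to 12 against eGFP, 2 to 3 for Rescue2 against Rescue1, 1 to 3 for labelled KO2 rescue, 6 to 10 for eGFP against WT, 0 to 1 for SOX2 and 0 for OCT2 and PRRX1. In the same order, the shares of all genes called were 5.07 to 8.97%, 21.8 to 27.6%, 13.5 to 15.7%, 4.4 to 12%, 16.3 to 22.2%, 13.1 to 16.7%, 9.06 to 12.9%, 0.672 to 1%, 2.93 to 3.41%, 8.82 to 11.9%, 0.048 to 0.247%, 0.0206 to 0.254% (OCT2) and 0.048 to 0.281% (PRRX1). A lone remaining library is assumed to vary like the other groups. Of 436 such values 68 were no longer called.

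Without COL4A2 the collagen share was 0.309% in WT, 0.849% with TGF-β, 0.373% in KO1, 0.495% in KO2, 0.534% in labelled KO2 rescue, 0.466% in Rescue1, 0.581% in Rescue2, 0.279% in eGFP, 0.333% with OCT2, 0.278% with PRRX1 and 0.324% with SOX2, so that KO1 was no longer lowest, its libraries lying between those of WT. With the median transcript length the median log2 ratio per kilobase was -9.75 for COL3A1 to COL1A1, -6.09 for COL4A6 to COL4A5 and 0.10 for COL6A2 to COL6A1.

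A fit with the replicate number as a block called 9 members with TGF-β, 15 in KO1, 14 in KO2 and 17 for KO against TGF-β, and lost COL28A1 there (adjusted p = 0.0540), with no other call changed. In the same order that fit called 7.65, 25, 16.2 and 20% of all genes. The numbers do not pair the samples, since over 55 pairs of groups the correlation of deviations was -0.0823 to 0.0475.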

Other observations

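Among the collagen-modifying genes, P3H3, a member of the prolyl 3-hydroxylase family, was at 46.7 and 23.5 normalized counts in the eGFP libraries, below all 20 other libraries. It was at 419 and 360 in WT (eGFP against WT: log2 change -3.51, limma adjusted p = 1.66e-05), 289 to 407 in the rescue clones and 359 to 513 in the OCT2, PRRX1 and SOX2 lines. These comparisons share the eGFP libraries. COL6A6, a type VI chain too low to be tested, was at 3.59 to 11.9 in the 4 rescue libraries and at 3.28 in 1 of the libraries labelled KO2 rescue, and at 0 in the other 17.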
